A study of Mus musculus with 7 samples.

Results

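Fatty acid oxidation and carnitine genes were examined in sorted marrow cells labelled LT-HSC, the stem cells that can renew all blood lineages for life, from mice without Emcn. The set holds 33 of the 54347 genes in the table. Of these, Crat and Chdh were selected on this same contrast, because both had lower counts in the knockout libraries. The other 31 were chosen by function, with earlier results of these data known. The values of Crat and Chdh are therefore given as a description with no test, and the question put to the other 31 genes is whether the pathway follows. Endomucin, the product of Emcn, is a mucin-like surface protein rich in sialic acid. The KO group held 3 female Emcn-/- mice (ko_306, ko_314 and ko_320, each named for its mouse), and the WT group held 4 female Emcn+/+ littermates (wt_284, wt_290, wt_310 and wt_312). All 7 mice carry the strain label C57BL/6N-EMCN em1(IMPC)Wtsi /WtsiH, and no age is stated in their labels. Marrow of the leg and hip bones was depleted of lineage-positive cells and sorted by lineage antigens, CD150, CD48, CD16/CD32, Sca-1 and c-kit. Each replicate was 1 mouse with 3000 to 5000 sorted cells, per the design text.

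Mitochondrial beta-oxidation shortens fatty acids in a repeating cycle and delivers acetyl-CoA and electrons for respiration. Long chains are first joined to coenzyme A and then carried across the inner membrane as carnitine esters, because acyl-CoA itself does not cross. Very long and branched chains are shortened in peroxisomes. In haematopoietic stem cells this pathway has been tied to self-renewal through the nuclear receptor encoded by Ppard. Crat encodes carnitine acetyltransferase, which moves short acyl groups between coenzyme A and carnitine. Chdh encodes choline dehydrogenase, a mitochondrial enzyme that turns choline into betaine aldehyde and lies beside the pathway, not in it.

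The libraries held 6444134 to 11101774 counts. Emcn had 1, 0 and 0 counts in ko_306, ko_314 and ko_320, against 130, 327, 223 and 216 counts in wt_284, wt_290, wt_310 and wt_312, so the targeted gene matched every label. Levels below are CPM (counts in a library of standard size, scaled with TMM factors), and fold changes are log2, KO minus WT, from an edgeR quasi-likelihood fit over 15372 tested genes. Emcn was the 1 gene called at an adjusted p below 0.05 (edgeR, adjusted p = 0.00011), which is 0.00651% of the genes tested. The 14 LT-HSC markers, such as Kit and Hlf, were all expressed. Their summed levels were 3004 to 3210 CPM in KO libraries and 1981 to 3359 CPM in WT libraries (at least 2879 CPM without wt_284). Of their fitted fold changes 10 were positive and 4 negative, with a median of 0.13. Without wt_284, 7 were positive and 7 negative, with a median of -0.01. The library wt_284 stood apart. Its 20 neutrophil and monocyte markers, led by S100a9, Ngp and Ltf, summed to 16214 CPM. In ko_306, ko_314 and ko_320 their sums were 751, 254 and 220 CPM, and in wt_290, wt_310 and wt_312 they were 1401, 1386 and 269 CPM. None of the 20 was at 0 in every KO library. All 20 fitted fold changes were negative, with a median of -4.00 (-1.70 for the 18 tested without wt_284), and edgeR called 0, with 6 at an unadjusted p below 0.05, while DESeq2 called 1. Of the erythroid markers, 11 of 11 fitted fold changes were negative, with a median of -2.50 (-1.03 without wt_284), and edgeR called 0, with 1 at an unadjusted p below 0.05 (DESeq2 called 0, with 8). Their sums were 538 to 683 CPM in KO libraries and 452 to 2215 CPM in WT libraries (at most 954 CPM without wt_284). Car2 had 470.2 to 575 CPM in KO libraries and 370.4 to 648 CPM in WT libraries. It made up most of the sum in every library but wt_284, where it had 632 of 2215 CPM. Of 12 lymphoid markers 4 were tested, and all 4 fold changes were negative, with a median of -2.08. Without wt_284, 2 were tested, 1 positive and 1 negative, with a median of 0.03. The 12 markers summed to 12.4 to 17.3 CPM in KO libraries. In WT libraries they summed to 12.2 to 157 CPM (at most 19.7 CPM without wt_284). Cd3e and Cd3g were at 0 in all KO libraries. In wt_284, wt_290, wt_310 and wt_312 Cd3e had 21, 1, 6 and 0 counts, and Cd3g had 21, 1, 0 and 0. Mast cell and basophil markers gave 5 of 5 negative values, with a median of -3.63 (-1.71 without wt_284). Their sums were 0.746 to 12.6 CPM in KO libraries and 10.5 to 214 CPM in WT libraries (at most 38.1 CPM without wt_284). Of these markers Gzmb, not tested, was at 0 in all KO libraries and had 14, 0, 0 and 0 counts in wt_284, wt_290, wt_310 and wt_312. Among antigens of other progenitors, Fcgr2b had 0 to 2.76 CPM in KO libraries and 3.98 to 24.4 CPM in WT libraries (-2.82, SE 1.09, and -1.87 without wt_284), and Cd48 had 0 to 1.79 CPM in KO libraries and 0.900 to 22.1 CPM in WT libraries (-2.82, SE 1.26, and -1.61 without wt_284). The other antigens of that list, Cd34 and Flt3, gave 0.06 (SE 0.21) and -0.07 (SE 0.24). Megakaryocyte markers summed to 217 to 296 CPM in KO libraries and 166 to 313.8 CPM in WT libraries. In bulk RNA, fewer cells of a type and less RNA per cell cannot be told apart.

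Crat (chromosome 2, 30400471 to 30415813, minus strand, GRCm38) had 159, 39 and 38 counts in ko_306, ko_314 and ko_320, against 204, 192, 124 and 137 counts in wt_284, wt_290, wt_310 and wt_312. Its level was 13.7, 5.82 and 4.84 CPM in the KO libraries, against 24.7, 18.1, 19.0 and 17.6 CPM in the WT libraries. Of the KO libraries ko_306 was the highest and still lay below the lowest WT library, so the groups did not overlap. Every KO library lay below every WT library in 2.43% of tested genes, and Crat was selected on this contrast. The fitted log2 fold change was -1.28 (SE 0.39), -1.91 without ko_306 and -1.15 without wt_284. With the mean level of the neutrophil and monocyte markers as a covariate it was -0.87. The library wt_312, whose marker sum of 269 CPM lay inside the KO range, had 17.6 CPM of Crat. That is 1 library. The highest marker sums of the groups were those of ko_306 (751 CPM) and wt_284 (16214 CPM), which also had the highest Crat levels of their groups. Whether Crat follows these markers was not tested.

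Chdh (chromosome 14, 30009023 to 30040527, plus strand, GRCm38) had 8, 0 and 0 counts in ko_306, ko_314 and ko_320, against 156, 49, 13 and 20 counts in wt_284, wt_290, wt_310 and wt_312. In CPM this was 0.689, 0 and 0 in KO libraries, against 18.9, 4.63, 1.99 and 2.57 in WT libraries. A count of 0 allows up to 3 counts, which is 0.447 CPM in ko_314 and 0.382 CPM in ko_320. This limit covers counting error only, not the spread between mice. The library wt_284 alone held more Chdh counts than the other WT libraries together. It also had the highest sums of neutrophil and monocyte, erythroid, lymphoid, and mast cell and basophil markers. The library ko_306, with the 8 counts, had the highest neutrophil and monocyte sum of the KO libraries (751 CPM). In wt_312, with 20 Chdh counts, that sum was 269 CPM, inside the KO range. Whether Chdh follows these markers was not tested. The fitted log2 fold change was -4.67 (SE 1.30), -3.50 without wt_284 and -2.84 with the neutrophil and monocyte level as a covariate. It was -8.80 without ko_306, where both remaining KO libraries are at 0. These folds depend on the small count added in the fit and are no bounds. Chdh passed the filter on low counts through its WT libraries alone. No word of 31 bases in the transcripts of Crat or Chdh occurs in another annotated gene. The share of their exon bases that overlaps genes on the other strand is 8.72% for Crat and 9.47% for Chdh.

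**Figure D1:**
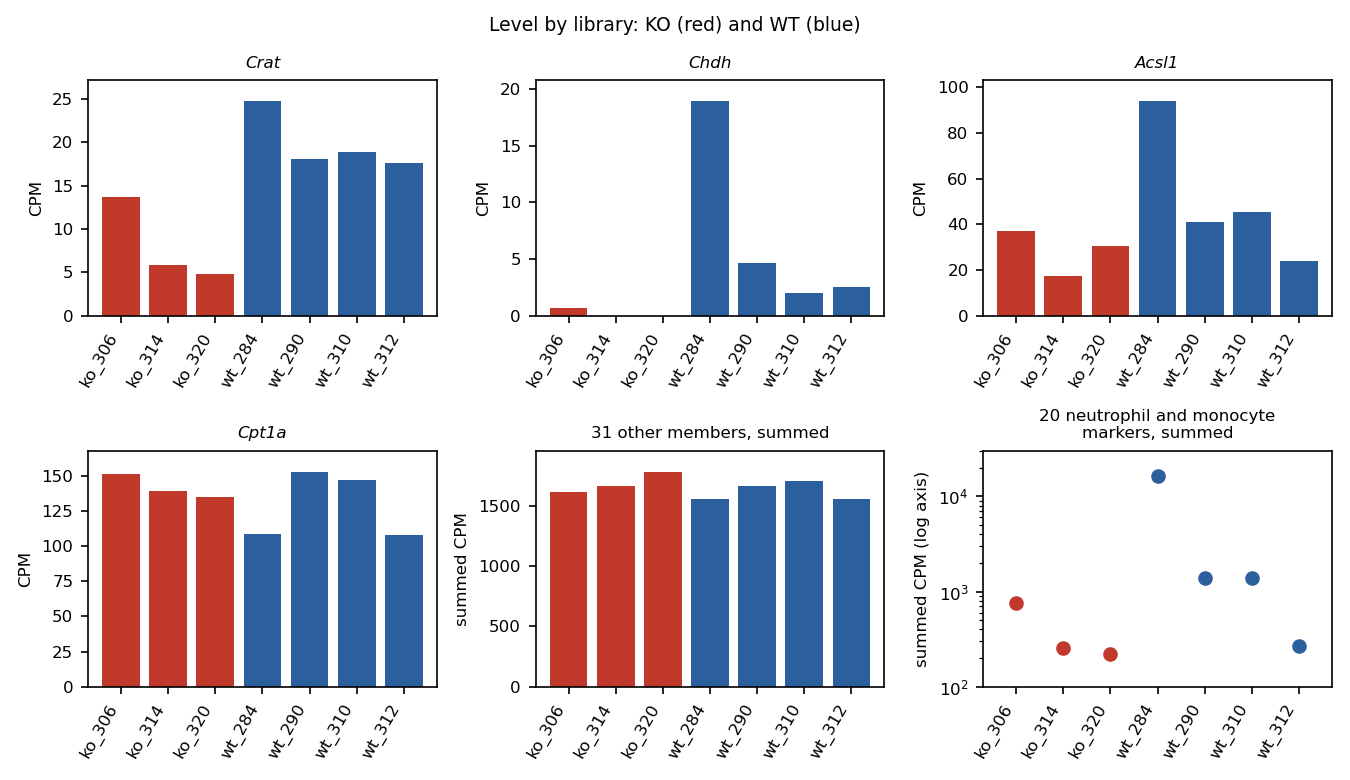
Level by library for Crat, Chdh, Acsl1, Cpt1a, the summed 31 other genes and the summed 20 neutrophil and monocyte markers, with KO libraries in red on the left and WT libraries in blue. Bars are CPM from 0, and the marker panel has a log axis. Crat and Chdh, which were selected on this contrast, are lower in all 3 KO libraries. The summed pathway overlaps between the groups, and the marker sum peaks in wt_284 at 16214 CPM.

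None of the other 31 genes differed between KO and WT cells past the threshold. All 31 were tested, 0 were called, and 0 had an unadjusted p below 0.05, against 503 of 15372 tested genes (3.27%) at that unadjusted level (edgeR). DESeq2 called 0, with Acsl1 at an unadjusted p of 0.0339, and limma-voom called 0, with 0 at an unadjusted p below 0.05. Fold changes were positive for 18 genes and negative for 13, from -0.84 to 0.33, with a median of 0.03. Over all tested genes 7317 were positive and 8055 negative, with a median of -0.02. Without wt_284 the 31 genes gave 17 positive and 14 negative values with a median of 0.02, against 0.00 over all tested genes. With the mean level of the neutrophil and monocyte markers as a covariate the median was 0.01. The sign then turned, with a move of over 1 SE, for Acsl1, Cpt2, Crot, Acadvl, Acadm, Hadha, Eci1, Decr1 and Etfb. That mean level was 1.27 to 3.14 log2 CPM in KO libraries and 2.08 to 7.82 log2 CPM in WT libraries. The covariate therefore cannot wholly be told apart from genotype, here or for the single genes. No gene of the 31 had every KO library below every WT library, and none had every KO library above, where 2.43% of tested genes were in each case. Summed over the 31 genes, the level was 1610, 1659 and 1775 CPM in ko_306, ko_314 and ko_320, against 1554, 1666, 1702 and 1551 CPM in wt_284, wt_290, wt_310 and wt_312. These sums overlap between the groups.

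Standard errors of these genes ran from 0.14 to 0.62 with a median of 0.22. The median was 0.33 over all tested genes and 0.24 over those with a mean of at least 10 CPM. For 28 of the 31 genes (90.3%) the 95% interval excluded a 2-fold change in either direction, against 49.6% of all tested genes and 76.5% of the 9896 tested genes with a mean of at least 10 CPM. The 3 exceptions were Acsl1 (-1.89 to 0.20), Ehhadh (-1.95 to 0.73) and Acaa2 (-0.47 to 1.12). Smaller changes are not resolved by 3 KO and 4 WT mice, and a p above the threshold does not show that the levels are equal.

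**Figure D2:**
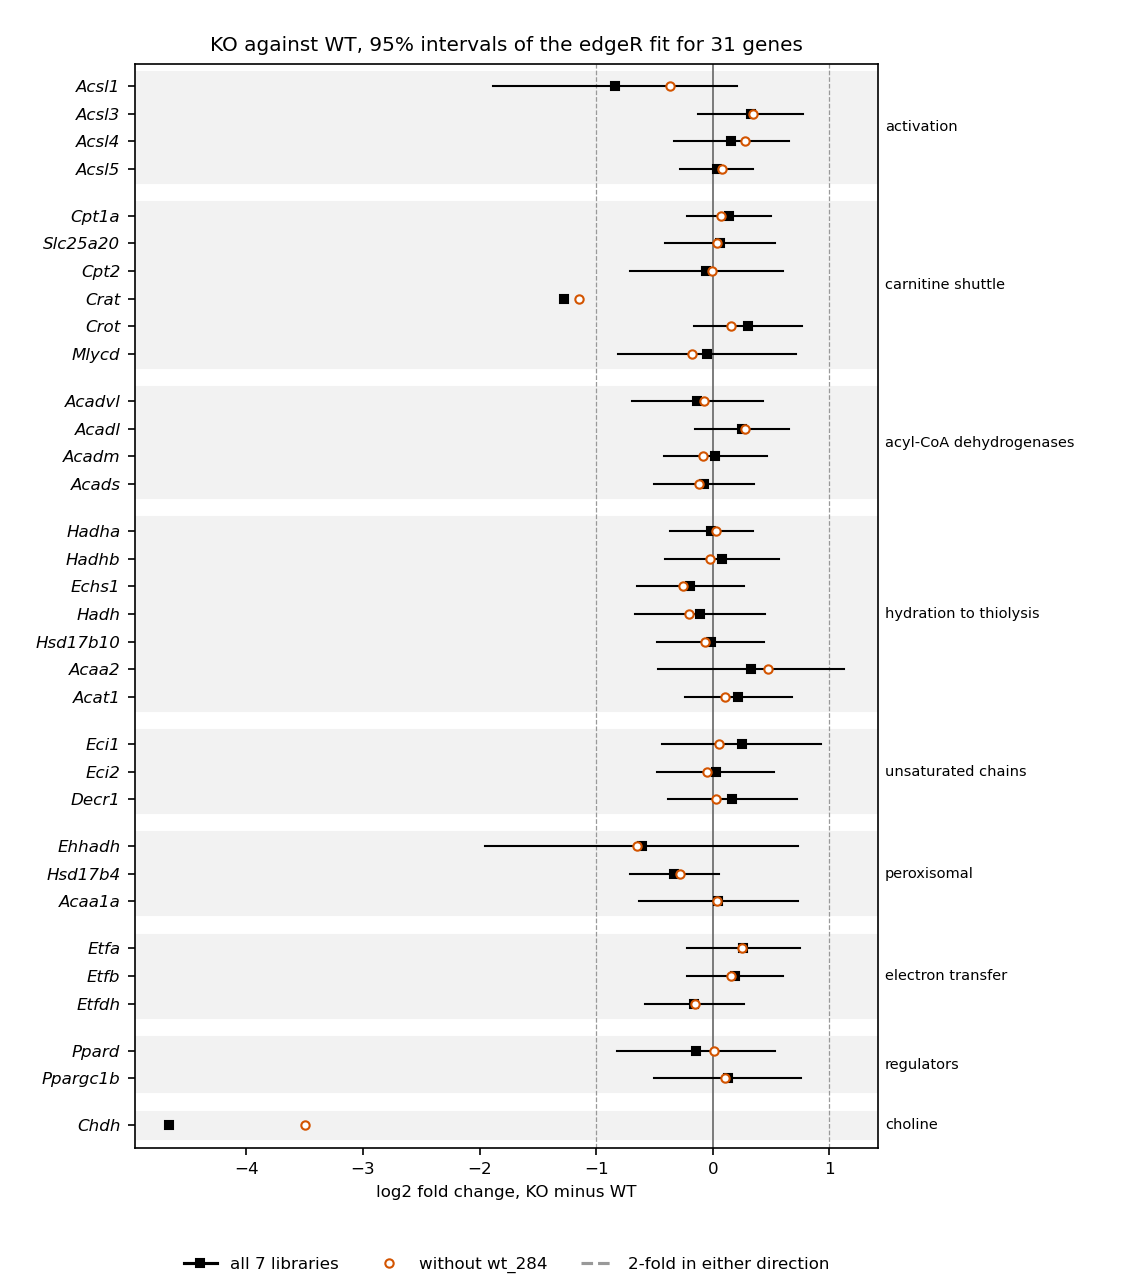
Fitted log2 fold changes, KO minus WT, by role. Squares use all 7 libraries, lines are 95% intervals of the edgeR fit for the 31 genes chosen by function, open circles leave out wt_284, and Crat and Chdh, which were selected on this contrast, have no interval. The 31 values lie between -0.84 and 0.33, while Crat is at -1.28 and Chdh at -4.67.

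Promoter windows of 300 bases (250 before and 50 after the start, RefSeq, GRCm38.p6) were at hand for 27 of the 33 genes. Those of Chdh, Cpt1a and Acadm are shown because they set the gene with the lowest relative KO level beside a pair of pathway genes at similar levels in both groups. Capitals mark AGGTCA or its reverse complement TGACCT, the core that nuclear receptors of the PPAR family recognise in pairs, and GGGCGG or its reverse complement CCGCCC, a GC box. The windows lie at chr14:30008750-30009049 on the plus strand for Chdh, chr19:3323051-3323350 on the plus strand for Cpt1a and chr3:153944594-153944893 on the minus strand for Acadm.
Chdh: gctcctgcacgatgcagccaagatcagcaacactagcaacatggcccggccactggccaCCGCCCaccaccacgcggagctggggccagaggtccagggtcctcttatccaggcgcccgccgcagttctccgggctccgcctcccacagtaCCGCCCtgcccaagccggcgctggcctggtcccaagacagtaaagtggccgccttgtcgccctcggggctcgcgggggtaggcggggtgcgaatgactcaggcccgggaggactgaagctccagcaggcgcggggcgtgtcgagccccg
Cpt1a: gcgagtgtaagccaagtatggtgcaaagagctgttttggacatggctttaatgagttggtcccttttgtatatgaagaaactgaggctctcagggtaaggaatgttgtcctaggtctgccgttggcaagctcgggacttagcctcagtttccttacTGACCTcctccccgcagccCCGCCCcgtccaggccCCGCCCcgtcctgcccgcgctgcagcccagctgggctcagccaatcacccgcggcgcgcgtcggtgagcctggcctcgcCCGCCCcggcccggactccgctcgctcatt
Acadm: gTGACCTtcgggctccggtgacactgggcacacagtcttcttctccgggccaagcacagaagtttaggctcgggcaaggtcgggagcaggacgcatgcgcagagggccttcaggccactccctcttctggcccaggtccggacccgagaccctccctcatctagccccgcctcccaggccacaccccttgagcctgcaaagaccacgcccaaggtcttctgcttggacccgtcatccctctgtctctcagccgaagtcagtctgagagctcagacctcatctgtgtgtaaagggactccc
The Chdh window holds 0 matches to AGGTCA and 2 GC boxes, that of Cpt1a holds 1 and 3, and that of Acadm holds 1 and 0. Chdh has 3 windows, and the start behind the one shown lies 23 bases from the annotated gene start. The Cpt1a start lies 967 bases inside the annotated gene. Among the 27 genes, AGGTCA on either strand was found in 4 (14.8%, namely Acadm, Acadvl, Cpt1a and Echs1), against 18.1% of 27025 genes with a window. A direct repeat of AGGTCA with 1 base between the copies was found in 0 of the 27, against 0.0481% of all genes. The GC box was found in 22 of the 27 (81.5%), against 38.2%, and the letters CCAAT or ATTGG in 15 (55.6%), against 41.1%. These were picked from 12 motifs after the counts were seen, and a match is a description of letters, not of binding.

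Fatty acid activation is carried out by long-chain acyl-CoA synthetases, which join free fatty acids to coenzyme A. Acsl1 had the largest negative fold change of the 31 genes. Its level was 37.3, 17.4 and 30.4 CPM in ko_306, ko_314 and ko_320, against 93.7, 41.2, 45.4 and 23.9 CPM in wt_284, wt_290, wt_310 and wt_312. The groups overlap, since wt_312 lies between ko_314 and ko_320, and wt_284 is far above the rest. The log2 fold change of Acsl1 was -0.84 (SE 0.46) with all libraries, -0.37 without wt_284 and 0.26 with the neutrophil and monocyte level as a covariate, so its direction turns under that covariate. Acsl5, in contrast, was among the steadiest of the genes. It had 107, 115 and 114 CPM in KO libraries, against 119.9, 110.4, 97.2 and 111 CPM in WT libraries, and a log2 fold change of 0.03 (SE 0.14). Acsl3, an endoplasmic reticulum and lipid droplet form, had 46.3 to 49.96 CPM in KO libraries and 30.2 to 49.4 CPM in WT libraries (0.32, SE 0.21). Acsl4, which prefers arachidonic acid, had 39.4 to 68.0 CPM in KO libraries and 37.1 to 58.5 CPM in WT libraries (0.16, SE 0.23).

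The carnitine shuttle apart from Crat gave 3 positive and 2 negative fold changes. Cpt1a, the outer membrane enzyme that loads long chains onto carnitine and sets the rate of entry, had 151, 139 and 135 CPM in ko_306, ko_314 and ko_320, against 109, 152, 147 and 108 CPM in wt_284, wt_290, wt_310 and wt_312. All KO values of Cpt1a lie inside the WT range, and the log2 fold change was 0.14 (SE 0.17). Slc25a20, the carrier that exchanges acylcarnitine for carnitine across the inner membrane, had 27.9, 29.2 and 26.1 CPM in KO libraries, against 25.0, 25.4, 27.2 and 28.9 CPM in WT libraries (0.06, SE 0.22). Cpt2, which returns the chain to coenzyme A inside, had 22.4, 16.7 and 24.3 CPM in KO libraries, against 24.0, 23.3, 27.7 and 13.0 CPM in WT libraries (-0.06, SE 0.30). The 3 steps that bring long chains into mitochondria thus overlapped between the groups.

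Crot, the peroxisomal enzyme that loads medium chains onto carnitine and is a relative of Crat, had 83.2, 114 and 104 CPM in ko_306, ko_314 and ko_320, against 55.3, 77.7, 88.5 and 105 CPM in wt_284, wt_290, wt_310 and wt_312. Its log2 fold change was 0.30 (SE 0.21) with all libraries and 0.16 without wt_284, the lowest library. With the neutrophil and monocyte level as a covariate it was -0.14, so its direction turns as well. Mlycd removes malonyl-CoA, the inhibitor of Cpt1a, and had 10.3 to 14.9 CPM in KO libraries and 8.97 to 18.9 CPM in WT libraries (-0.05, SE 0.35). Summed over the 6 shuttle genes, Crat included, the level was 310, 320 and 305 CPM in KO libraries, against 247, 308, 321 and 291 CPM in WT libraries.

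**Figure D3:**
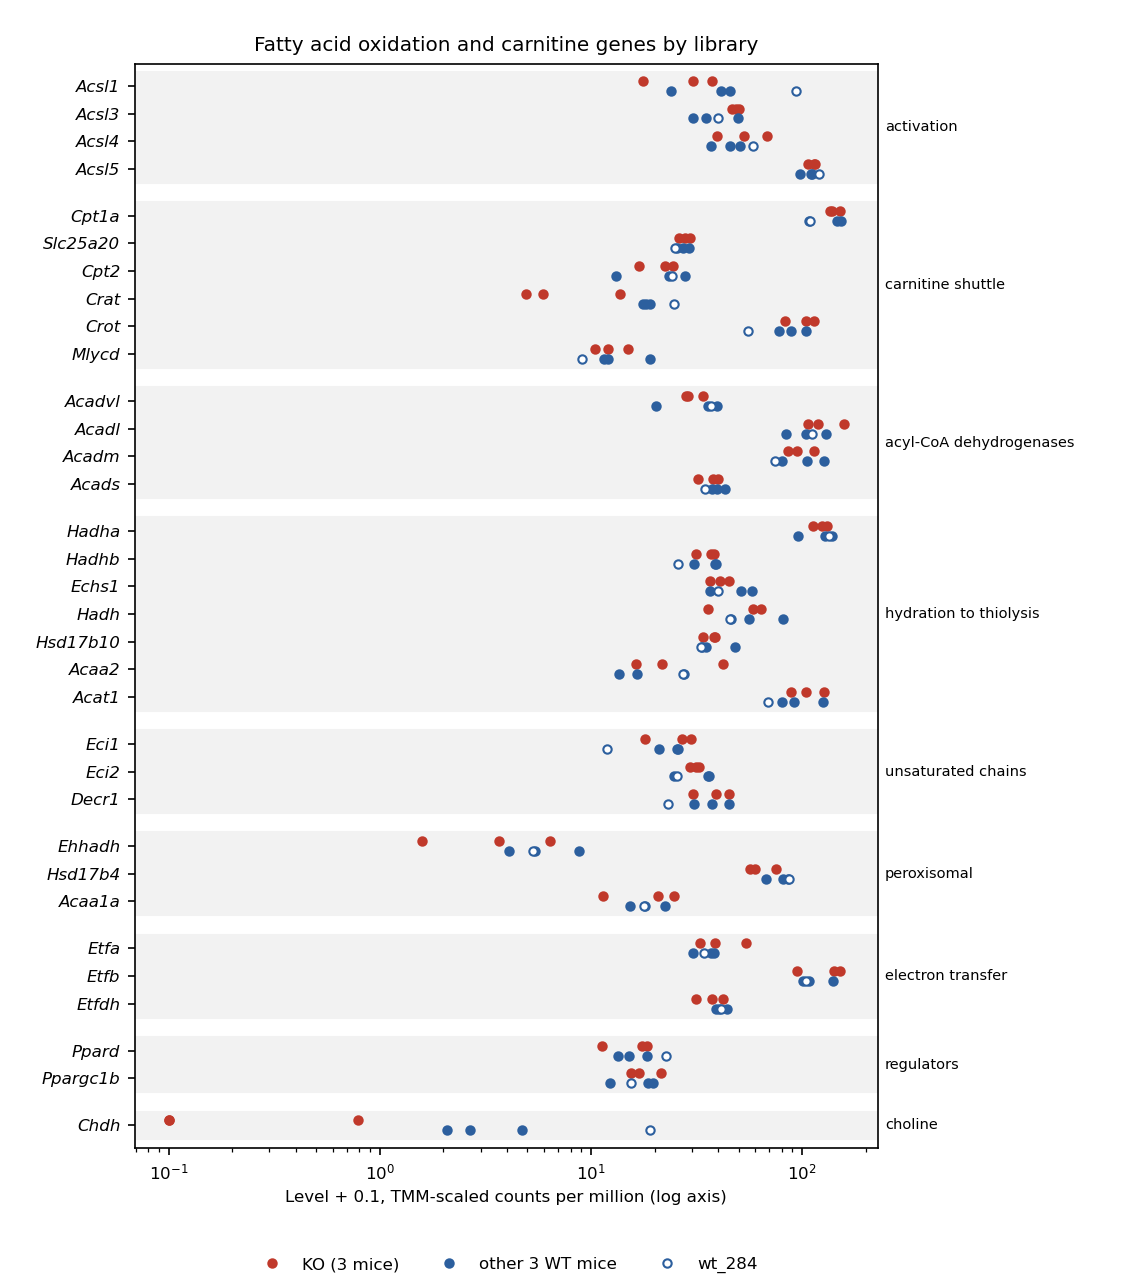
Level of each of the 33 genes in each library, grouped by role, on a log axis of TMM-scaled CPM with 0.1 added. Red points are the 3 KO mice, filled blue points wt_290, wt_310 and wt_312, and open blue points wt_284. Only Crat and Chdh, which were selected on this contrast, separate the groups, and the other 31 genes overlap. Every KO library lay below every WT library in 2.43% of all tested genes.

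The acyl-CoA dehydrogenases open each round of oxidation and differ in the chain length they accept. Acadl, for long chains, had 107, 118 and 157 CPM in ko_306, ko_314 and ko_320, against 111, 129, 104 and 84.2 CPM in wt_284, wt_290, wt_310 and wt_312 (0.25, SE 0.19). The highest library is ko_320 and the lowest wt_312, with the others between. Acadm, for medium chains, had 86.0 to 114 CPM in KO libraries and 74.4 to 126 CPM in WT libraries (0.02, SE 0.20). Acads, for short chains, had 32.0 to 39.8 CPM in KO libraries and 34.4 to 42.9 CPM in WT libraries (-0.08, SE 0.20). Acadvl, for very long chains, had 28.0 to 33.7 CPM in KO libraries and 20.2 to 39.6 CPM in WT libraries (-0.13, SE 0.26). Of the exon bases of Acadvl, 42.9% overlap Dvl2 on the other strand. The sources do not state whether the counting used strand, so its values are uncertain. The direction was mixed across chain lengths, with 2 positive and 2 negative.

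Hydration, the next dehydrogenation and thiolysis were represented by 7 genes, 3 positive and 4 negative. Hadha and Hadhb encode the subunits of the trifunctional protein for long chains. Hadha had 113 to 131 CPM in KO libraries and 95.03 to 139 CPM in WT libraries, with a log2 fold change of -0.01 (SE 0.16). Hadhb had 31.3 to 38.3 CPM in KO libraries and 25.8 to 39.1 CPM in WT libraries (0.08, SE 0.22). Both subunits lay inside the WT range in every KO library. Of the 31-base words of Hadhb, 23.3% also occur in other genes, and 19.5% in Gm13910, so its values carry that uncertainty. For shorter chains, Echs1, the enoyl-CoA hydratase, gave -0.19 (SE 0.21), and Hadh, the hydroxyacyl-CoA dehydrogenase, gave -0.11 (SE 0.26). Hsd17b10, a dehydrogenase that also serves in mitochondrial tRNA processing, gave -0.02 (SE 0.21). The sign for Hadha and Hsd17b10, both near 0, turned with upper-quartile scaling.

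The thiolases end each round by releasing acetyl-CoA. Acaa2 had 21.7, 16.3 and 41.9 CPM in ko_306, ko_314 and ko_320, against 27.3, 27.5, 16.5 and 13.5 CPM in wt_284, wt_290, wt_310 and wt_312. Its positive value rests on ko_320, since the log2 fold change was 0.33 (SE 0.37) with all libraries and -0.14 without ko_320. Acat1, which also acts on ketone bodies and isoleucine, had 88.7 to 127 CPM in KO libraries and 68.7 to 125 CPM in WT libraries (0.22, SE 0.21).

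Eci1, Eci2 and Decr1 move or reduce double bonds so that unsaturated chains can enter the cycle. All 3 fold changes were positive and small, at 0.25 (SE 0.32) for Eci1, 0.03 (SE 0.23) for Eci2 and 0.17 (SE 0.26) for Decr1. Without wt_284, the lowest library for Eci1 and Decr1, they were 0.05, -0.05 and 0.02 in the same order. With the neutrophil and monocyte level as a covariate Eci1 turned to -0.35 and Decr1 to -0.20, while Eci2 stayed at 0.02.

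Peroxisomal oxidation held the gene with the smallest unadjusted p of the 31. Hsd17b4, the D-bifunctional protein for very long and branched chains, had 75.1, 59.8 and 56.5 CPM in ko_306, ko_314 and ko_320, against 86.9, 81.0, 67.1 and 86.0 CPM in wt_284, wt_290, wt_310 and wt_312. Since ko_306 lies above wt_310, the groups overlap. The log2 fold change of Hsd17b4 was -0.33 (SE 0.18) with an unadjusted p of 0.0845 and an adjusted p of 0.992 (edgeR). Ehhadh, the L-bifunctional protein, was the lowest of the 31 genes per length. It had 6.29, 1.49 and 3.57 CPM in KO libraries, against 5.21, 8.69, 5.35 and 3.98 CPM in WT libraries (-0.61, SE 0.62). The library ko_306 was above 3 of the 4 WT libraries, so the groups overlap, and without it the value was -1.21. Acaa1a, a peroxisomal thiolase, had 11.3 to 24.7 CPM in KO libraries and 15.3 to 22.3 CPM in WT libraries (0.05, SE 0.31). Of its 31-base words, 16.9% also occur in Acaa1b, which is listed at 0 in all 7 libraries.

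Electrons from the dehydrogenases pass through the flavoprotein encoded by Etfa and Etfb to the oxidoreductase encoded by Etfdh and on to ubiquinone. Etfa had 32.8 to 54.3 CPM in KO libraries and 30.4 to 38.1 CPM in WT libraries (0.26, SE 0.22). Etfb had 94.5, 141 and 151 CPM in ko_306, ko_314 and ko_320, against 104, 108, 101 and 140.1 CPM in wt_284, wt_290, wt_310 and wt_312 (0.19, SE 0.19). The lowest library of all is ko_306, and wt_312 lies with the higher KO libraries. Etfdh had 31.2 to 41.9 CPM in KO libraries and 38.8 to 44.2 CPM in WT libraries (-0.16, SE 0.20). The partners of this chain did not share a direction. Of the 31-base words of Etfb, 47.3% also occur in Gm45233, which overlaps it on the same strand. Gm45233 had 27 to 64 counts in KO libraries and 10 to 45 counts in WT libraries, against at least 660 counts of Etfb in each, but the split between them is an estimate.

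Among the regulators, Ppard, the nuclear receptor that switches on oxidation genes, had 11.2 to 18.3 CPM in KO libraries and 13.3 to 22.5 CPM in WT libraries (-0.15, SE 0.31). Ppargc1b, a coactivator of mitochondrial genes, had 15.4 to 21.4 CPM in KO libraries and 12.2 to 19.5 CPM in WT libraries (0.13, SE 0.29). Both overlapped between the groups.

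Levels were also set on a scale of CPM per kilobase of the median coding transcript, so that genes could be ordered. Etfb was the highest at 134 CPM per kilobase over the 7 libraries, then Acadl at 60.5, Acadm at 47.5, Hsd17b10 at 38.0 and Cpt1a at 31.1. The lowest were Mlycd at 5.93, Ppargc1b at 4.88, Crat at 3.87, Ehhadh at 1.66 and Chdh at 0.904 CPM per kilobase. Of the 32 pairs of neighbours in this order, only Etfb and Acadl had ranges over the 7 libraries that did not overlap, so most of the order is not resolved. With the union of all exons as length, an alternative added after the data were seen, 14 genes moved by more than 5 places and 25 of 33 levels moved by more than 1 SD. Etfb and Acadl stayed at the top, and Ehhadh and Chdh at the bottom. The level was at or above 1 CPM in every library for 32 of the 33 genes, all but Chdh. The coefficient of variation over the 7 libraries was below 20% for 16 genes, with a median of 19.8% over the 31.

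**Figure D4:**
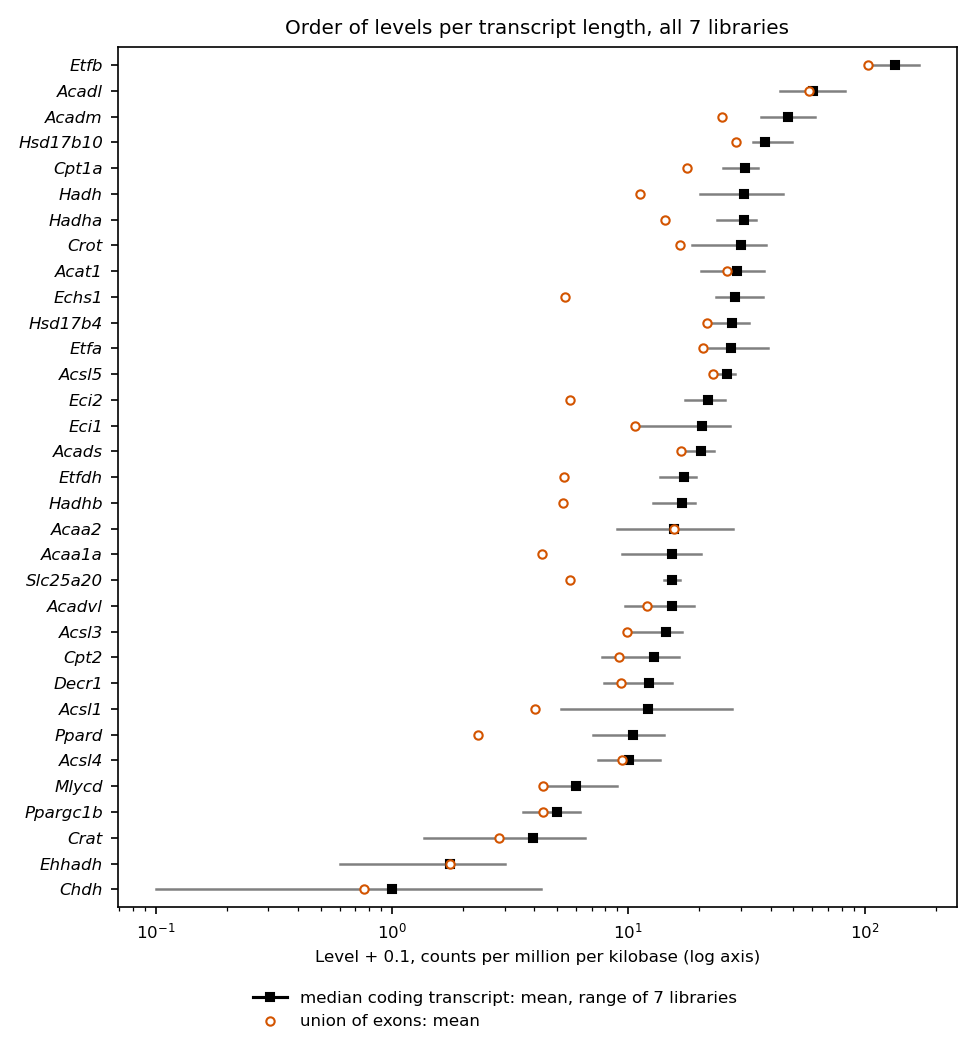
Mean level of each gene over all 7 libraries in CPM per kilobase, with 0.1 added, on a log axis. Squares use the median coding transcript length with a line from the lowest to the highest library, and open circles use the union of exons. Etfb at 134 stands above Acadl at 60.5, and Chdh at 0.904 is the lowest.

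Of 111 genes in neighbouring pathways, 99 were tested, 0 were called, and 3 had an unadjusted p below 0.05 (edgeR), with 41 positive and 58 negative fold changes and a median of -0.06. DESeq2 called 0, with 7 at an unadjusted p below 0.05, and limma-voom called 0, with 2. Every KO library lay below every WT library in 2 of the 99 (Dgat1 and the peroxisomal transporter gene Abcd2, named after its values were seen) and above in 1 (Hilpda), against 2.43% of all tested genes each way. The list of other oxidation genes had 44 tested genes, 21 positive and 23 negative, with a median of -0.04. Slc27a4, a fatty acid transporter and acyl-CoA synthetase, had 11.9, 8.95 and 6.37 CPM in KO libraries, against 44.8, 11.7, 17.6 and 14.0 CPM in WT libraries. Cd36, a fatty acid receptor also found on monocytes, had 2.07, 2.98 and 1.40 CPM in KO libraries, against 25.6, 3.40, 2.75 and 3.98 CPM in WT libraries. In both genes wt_284 is far above the rest. The log2 fold change was -1.28 (SE 0.47) for Slc27a4 and -2.05 (SE 0.84) for Cd36 with all libraries, and -0.66 and -0.65 without wt_284. Acss1, which activates acetate, gave -0.64 (SE 0.30), and -0.49 without wt_284.

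Slc22a5, the plasma membrane carnitine transporter, had 11.1 to 11.2 CPM in KO libraries and 8.10 to 12.7 CPM in WT libraries (0.06, SE 0.33). Ppara was near 0, with 1 count in ko_314 and 0 in the other libraries, and was not tested. Cpt1b, the muscle form of the entry enzyme, had 19, 38 and 0 counts in KO libraries, against 7, 2, 0 and 0 in WT libraries, and was not tested. Low counts also left wide errors for Pparg (1.13, SE 0.97), Ppargc1a (-0.27, SE 0.65) and Pdk4 (-0.22, SE 1.06), so nothing can be said of their direction.

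Carnitine synthesis and choline oxidation, the routes next to Crat and Chdh, had 11 tested genes of 14 in the table, with 4 positive and 7 negative, 0 called and 0 at an unadjusted p below 0.05, and a median of -0.10. Aldh7a1, which acts on betaine aldehyde, the product of Chdh, had 43.8, 36.7 and 31.8 CPM in ko_306, ko_314 and ko_320, against 29.9, 44.5, 50.4 and 35.6 CPM in wt_284, wt_290, wt_310 and wt_312 (-0.10, SE 0.23). Its groups overlap, while Chdh was selected on this contrast. Aldh9a1, a dehydrogenase of carnitine synthesis, gave 0.18 (SE 0.19), and Bbox1, which makes carnitine in the last step, is listed at 0 in all 7 libraries. Tmlhe was not analysed here. The choline transporters Slc44a2 and Slc44a1 gave -0.34 (SE 0.20, and -0.22 without wt_284) and -0.37 (SE 0.37), and Shmt1, a folate enzyme, gave 0.25 (SE 0.24).

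Fatty acid synthesis and storage had 18 tested genes, 5 positive and 13 negative, with 0 called, 1 at an unadjusted p below 0.05 (edgeR) and a median of -0.14. Dgat1, which completes triglycerides, had 7.06, 6.41 and 1.91 CPM in KO libraries, against 33.9, 8.12, 11.004 and 10.7 CPM in WT libraries, so every KO library lay below every WT library. Its log2 fold change was -1.63 (SE 0.60), with an unadjusted p of 0.0198 and an adjusted p of 0.992 (edgeR), and -0.94 without wt_284. Hilpda, an inhibitor of triglyceride breakdown, had 2.84, 3.58 and 6.88 CPM in KO libraries, against 1.94, 1.32, 1.22 and 2.18 CPM in WT libraries. Its groups do not overlap and its log2 fold change was 1.40 (SE 0.71). Mgll, a monoglyceride lipase, gave -1.85 (SE 0.94), and -1.05 without wt_284. The pyruvate dehydrogenase and citrate cycle list had 26 tested genes, 11 positive and 15 negative, with 0 called, 0 at an unadjusted p below 0.05 and a median of -0.05. Its smallest unadjusted p values were those of Mdh2 (-0.30, SE 0.17, and -0.14 without wt_284) and Dlat (-0.35, SE 0.21), with Pdk2 next (-0.51, SE 0.38). Slc27a4, Cd36, Dgat1 and Mgll were all highest in wt_284. Their log2 fold changes with the neutrophil and monocyte level as a covariate were -0.26, -0.25, -0.59 and -0.75 in that order. Abcd2, also highest in wt_284, gave -2.96 (SE 1.34), -1.67 without wt_284 and -1.42 with that covariate. Hilpda gave 1.19 with that covariate.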

How the data were processed

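Sorted LT-HSCs of 3 KO and 4 WT mice were sequenced after library preparation with the SMARTer total RNA kit, per the labels' protocols, although the molecule is labelled polyA RNA. The authors deposited estimated counts, unscaled and in whole numbers, and cutadapt and Salmon appear in the submitters' processing notes. No source used here states versions, annotation or rounding. Of 54347 identifiers, 98.1% had the same version in GENCODE M21 (GRCm38). Of the value columns, 0 were unmatched. R 4.3.3 and edgeR 4.0.16 gave robust quasi-likelihood tests with TMM factors after filterByExpr, with Benjamini-Hochberg adjustment over 15372 of 29739 detected genes and a threshold of 0.05. The standard error is the log2 fold change over the square root of F, and 95% intervals follow from it. Alternatives were DESeq2 1.42.0, limma-voom (limma 3.58.1), other scalings, filters, thresholds and samples, and a marker covariate. The fit was tested on simulated data. The 33 genes, the pathway and marker lists and the alternatives were chosen with earlier results of these data known. Named beside the 33 were, of each pathway list, genes past the threshold, filled to 3 by the smallest unadjusted p, plus 12 pathway genes whatever their p (1 of them is not reported here), and of the markers the highest by mean level. Limits for a count of 0 (3 counts) cover counting error only, since the table holds no molecular identifiers. Shared sequence is the share of a gene's 31-base words found in other GENCODE M21 genes.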

Additional observations from a re-analysis of the deposited data

Results flagged for a closer look

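Among the 4 WT libraries, 3 of the 33 genes had a library far from the other 3 by Dixon's criterion, where chance flags about 1 in 20. Hsd17b10 was at 47.8 CPM in wt_310, Etfb at 140.1 CPM in wt_312, and Chdh at 18.9 CPM in wt_284. The flagged libraries are 3 different mice, and wt_284 also had the highest neutrophil and monocyte marker sum, 16214 CPM.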

How the results depend on the processing

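The count of 0 called among the 31 genes chosen by function held under every alternative run, as did the 0 called among the neighbouring pathway genes, and the median fold change of the 31 moved by less than 0.0854, the pooled SD between libraries. Over all genes, 1 was called in the main comparison, 13 with DESeq2, 81 with no filter, 0 with limma-voom (469 at an unadjusted p below 0.05), 7 with only mice numbered above 300, 2 with the neutrophil and monocyte covariate and 1 to 3 when each mouse was left out (3 without ko_306 or wt_284, 2 without ko_314 or wt_290). Of 528 single-gene fold changes under an alternative, 501 stayed within 1 SE and 27 moved further, 14 of these under the covariate and 9 with only mice above 300. The sign changed in some alternative for 22 of the 33 genes, 12 under the covariate and 2 under another scaling. Crat was at -1.15 and Chdh at -3.10 with mice above 300. No paired analysis was possible because each mouse number occurs once and the labels name no litter or batch. Both mice numbered under 300 are WT, and the labels do not say whether the numbers follow litter or age. An effect of anything that follows the numbers cannot wholly be told apart from that of genotype. With 3 KO mice, changes well under 2-fold are not resolved.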
